A study of Mus musculus with 28 samples.

Results

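The mouse genes Fos, Fosb, Fosl2, Jun, Junb, Egr1, Egr2, Egr3, Egr4 and Npas4 encode transcription factors that neurons make in response to activity. They were taken by their gene symbols from the count tables of both cohorts of the series, and all 10 were found in each table. The table of the social stress cohort listed 15097 genes, that of the diabetes cohort 15054, and 14888 genes were in both. Total RNA depleted of ribosomal RNA was sequenced from frontal cortex, 1 library for each of 28 mice, all male and C57Bl/6.

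The first cohort held 8 mice under chronic social stress (CSS) and 8 controls (CSS_control), all 21 weeks old. The stressed mice were isolated for 7 weeks and confronted with other mice 2 times a day over the last 20 days, so isolation and confrontation cannot be told apart. The second cohort held 6 mice with type 2 diabetes (T2D) and 6 controls (T2D_control), all 30 or 31 weeks old. Diabetes was induced with 75 mg/kg streptozotocin, which destroys pancreatic beta cells, together with 21 weeks on a diet that drew 43.2% of its energy from fat. Streptozotocin and diet were given together, and their effects cannot be told apart. For both control groups the labels speak only of control conditions. All mice were anaesthetised before the brain was removed. How long after the last confrontation the brain was removed is not stated in the sources used here.

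These genes are immediate early genes: synaptic input raises calcium in the neuron, and kinases then activate transcription factors already in place, chiefly CREB and SRF, which switch the genes on within minutes without new protein. The Fos and Jun proteins pair up to form AP-1, the Egr proteins are zinc finger factors, and Npas4 is a basic helix-loop-helix factor of neurons that answers to calcium. Because the messages are short-lived, their levels in cortex are widely used as a record of recent activity.

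Sequence from RefSeq (GRCm38.p6) was used for windows around the starts of 8 of the 10 genes, with 5 alternative starts for Egr2. No window was used for Egr1 or Egr3. The windows ran from 250 bases before the start to 50 bases after it. Jun was chosen because its level did not follow the others over all libraries of a cohort. The 250 bases before the start are shown for it and for Fos, Egr2 and Npas4, which represent the Fos, Egr and Npas4 branches. Each is given 5′ to 3′ along the gene's own strand. Capitals mark the bases of TGACG, the core of the CREB site, which reads CGTCA where it lies on the other strand, and of the CArG box, the site of SRF.
Fos, chr12:85473640-85473889, plus strand: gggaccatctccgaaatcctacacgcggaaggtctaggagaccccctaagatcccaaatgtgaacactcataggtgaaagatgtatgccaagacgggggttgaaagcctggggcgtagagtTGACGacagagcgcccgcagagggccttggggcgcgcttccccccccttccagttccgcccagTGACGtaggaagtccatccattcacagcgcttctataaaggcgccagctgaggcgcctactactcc
Egr2, chr10:67537619-67537868, plus strand: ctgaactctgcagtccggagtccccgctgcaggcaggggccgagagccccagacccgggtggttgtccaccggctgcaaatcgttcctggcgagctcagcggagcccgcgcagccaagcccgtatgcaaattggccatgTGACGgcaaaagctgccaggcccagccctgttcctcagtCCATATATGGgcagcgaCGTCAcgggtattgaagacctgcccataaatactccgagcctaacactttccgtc
Npas4, chr19:4989972-4990221, minus strand: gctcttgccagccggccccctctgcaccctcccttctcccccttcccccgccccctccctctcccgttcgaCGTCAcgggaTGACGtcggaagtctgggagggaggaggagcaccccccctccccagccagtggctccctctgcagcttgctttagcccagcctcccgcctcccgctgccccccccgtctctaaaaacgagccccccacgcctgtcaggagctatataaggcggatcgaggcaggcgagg
Jun, chr4:95052223-95052472, minus strand: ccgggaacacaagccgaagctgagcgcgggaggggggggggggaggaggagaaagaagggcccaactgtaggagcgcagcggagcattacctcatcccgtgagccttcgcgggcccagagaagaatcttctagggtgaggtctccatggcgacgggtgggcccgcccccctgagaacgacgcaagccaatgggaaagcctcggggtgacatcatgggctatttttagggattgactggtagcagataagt

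The Fos window held TGACG 129 and 66 bases before the start, that of Npas4 179 and 169 bases before it, and the Egr2 window shown 111 and 55 bases before it. The CArG box of that Egr2 window began 72 bases before the start. Over both strands of the whole windows, TGACG lay in a window of 6 of the 8 genes, namely Fos, Fosb, Junb, Egr2, Egr4 and Npas4, and in none of Jun or Fosl2. It was found in 20.8% of the 32851 promoter windows of all genes. The CArG box lay in windows of 1 of the 8 genes, Egr2, in 4 of its 5 windows, and in 1.63% of all windows. The Egr2 windows that start at chr10:67537619, 67537620 and 67537680 overlap and hold the same CArG box. A count of genes and a share of windows are unlike measures, as a gene with several starts has several windows. Sites farther than 250 bases before the start were outside these windows, and Egr1 and Egr3 were not searched. The site GCGNGGGCG, which Egr proteins bind, lay in the windows of 2 genes, Fosl2 and Fosb, and in 5.55% of all windows. The full CREB site TGACGTCA, of which TGACG is a part, and the AP-1 site TGANTCA were in windows of 0 of the 8 genes, beside 1.79% and 7.81% of all windows. A match describes the letters in these windows and is not evidence of binding.

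By the GENCODE M21 annotation of GRCm38, Fos lies at chr12:85473890-85477273, Fosb at chr7:19302696-19310051, Fosl2 at chr5:32135801-32157842, Jun at chr4:95049034-95052222 and Junb at chr8:84974484-84978718. Egr1 lies at chr18:34859823-34864984, Egr2 at chr10:67535475-67542188, Egr3 at chr14:70077203-70082614, Egr4 at chr6:85511121-85513589 and Npas4 at chr19:4984355-4990316. The values are totals per gene and do not separate its transcripts.

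Levels are the authors' estimated counts as counts-per-million (CPM), after TMM scaling over all 28 libraries. In units of 1000000 counts, the library totals lay between 15.2 and 21.9 in CSS, 14.3 and 37.5 in CSS_control, 14.3 and 22.7 in T2D, and 12.1 and 21.6 in T2D_control. The RNA integrity number (RIN) averaged 9.63 ± 0.341 in CSS and 9.53 ± 0.225 in CSS_control (SD, n = 8 each). It averaged 9.05 ± 0.235 in T2D and 9.37 ± 0.509 in T2D_control (SD, n = 6 each). The 8 markers of excitatory neurons were above 0 in every library and summed to between 1385 and 2233 CPM in CSS and 1378 and 1955 CPM in CSS_control. They summed to between 1081 and 2111 CPM in T2D and 1457 and 1998 CPM in T2D_control. Markers of striatal projection neurons, from the region beneath the cortex, were also above 0 in every library, with sums from 181 to 1422 CPM in T2D and from 228 to 1309 CPM in T2D_control.

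**Figure D1:**
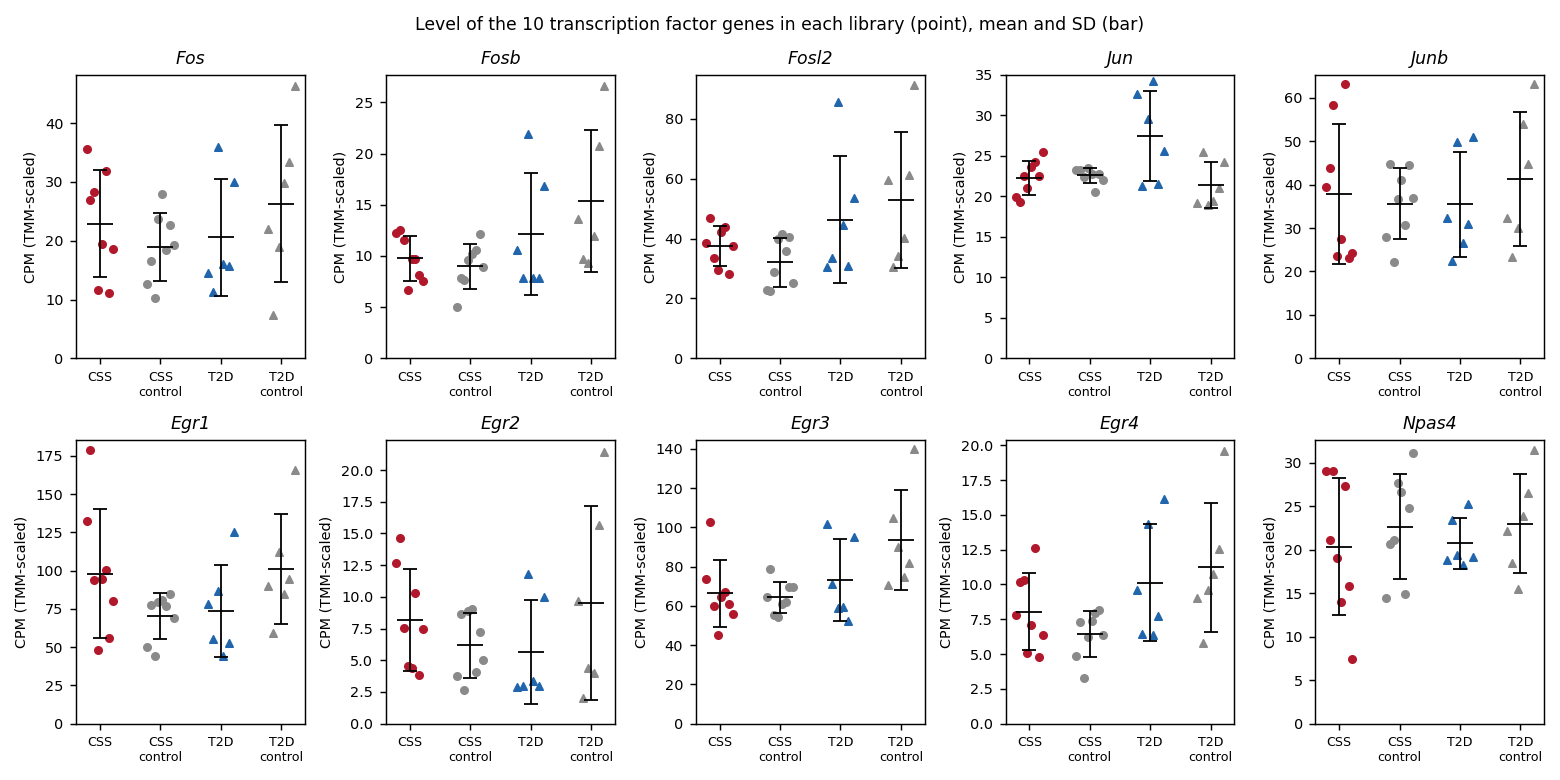
Level of each of the 10 genes in CPM in every library of the CSS, CSS_control, T2D and T2D_control groups. Each point is 1 mouse, the long bar is the mean and the whiskers are 1 SD. The groups overlap for every gene, and Jun in CSS and CSS_control has the narrowest range of values, between 19.4 and 25.4 CPM over both groups.

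Among the Fos family, Fos, the best known partner of Jun in AP-1, ran from 11.1 to 35.5 CPM with a median of 23.2 in CSS, and from 10.3 to 27.9 CPM with a median of 18.8 in CSS_control. CSS replicates 1, 6, 3 and 2 were high and CSS replicates 4 and 7 lay near the lowest controls. In T2D, Fos ran from 11.3 to 36.0 CPM with a median of 15.9, and in T2D_control from 7.37 to 46.3 CPM with a median of 25.9. T2D replicates 3 and 6 lay well above the other 4 T2D libraries, and T2D_control replicate 6 was the highest of all 28. Fosb, whose truncated product ΔFosB is known to accumulate under repeated stimulation, averaged 9.76 ± 2.21 CPM in CSS and 9.00 ± 2.18 CPM in CSS_control (SD, n = 8 each). It averaged 12.1 ± 5.91 CPM in T2D and 15.4 ± 6.92 CPM in T2D_control (SD, n = 6 each), a sum over both products, which gene counts do not separate. Fosl2, which encodes the Fos-related antigen Fra-2, averaged 37.5 ± 6.77 CPM in CSS and 32.1 ± 8.12 CPM in CSS_control. It averaged 46.3 ± 21.2 CPM in T2D and 52.9 ± 22.8 CPM in T2D_control.

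Of the Jun family, Jun, the central AP-1 subunit, ran from 19.4 to 25.4 CPM with a median of 22.5 in CSS, and from 20.5 to 23.5 CPM with a median of 22.8 in CSS_control. The stressed libraries lay on both sides of the controls. In T2D, Jun ran from 21.3 to 34.3 CPM with a median of 27.6, and in T2D_control from 18.9 to 25.5 CPM with a median of 20.2. T2D replicates 4, 1, 3 and 6 lay above every T2D_control library, and T2D replicates 2 and 5 lay within them. Junb, which encodes an AP-1 subunit that can restrain Jun, averaged 37.9 ± 16.1 CPM in CSS and 35.6 ± 8.10 CPM in CSS_control, and 35.4 ± 12.01 CPM in T2D and 41.2 ± 15.4 CPM in T2D_control. CSS replicates 6 and 3 had the most Junb of the first cohort, 63.2 and 58.4 CPM. In the GENCODE M21 annotation 7.28% of the exon bases of Jun are shared with Junos and 7.52% of those of Junb with Prdx2, each on the opposite strand. Whether strand was used in counting is not given in the sources used here, so those reads may belong to either gene.

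Among the Egr genes, Egr1, a zinc finger factor used as a marker of active cortex, ran from 48.1 to 179 CPM with a median of 94.1 in CSS, and from 44.6 to 84.5 CPM with a median of 77.2 in CSS_control. CSS replicates 2, 1 and 6 exceeded 100 CPM, all controls lay below 85 CPM, and CSS replicates 4 and 7 lay near the lowest controls. In T2D, Egr1 ran from 44.0 to 125 CPM with a median of 66.6, and in T2D_control from 59.6 to 166 CPM with a median of 92.4. T2D replicate 6 was the one diabetic library above the mean of the controls. Egr2, which outside neurons also drives myelination in Schwann cells, ran from 3.86 to 14.6 CPM with a median of 7.54 in CSS, and from 2.69 to 9.03 CPM with a median of 6.15 in CSS_control. It ran from 2.87 to 11.8 CPM with a median of 3.16 in T2D, and from 2.00 to 21.4 CPM with a median of 7.02 in T2D_control. T2D replicates 3 and 6 had 11.8 and 9.97 CPM and the other 4 diabetic libraries 3.35 CPM or less, while the controls spread 10.7-fold. Egr3, a target and relative of Egr1, averaged 66.3 ± 17.1 CPM in CSS and 64.4 ± 8.04 CPM in CSS_control, and 73.2 ± 20.7 CPM in T2D and 93.7 ± 25.6 CPM in T2D_control. Egr4, the fourth member of the family, averaged 8.04 ± 2.77 CPM in CSS and 6.43 ± 1.67 CPM in CSS_control, and 10.1 ± 4.21 CPM in T2D and 11.2 ± 4.66 CPM in T2D_control.

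Npas4, which controls the balance of excitatory and inhibitory synapses, ran from 7.38 to 29.1 CPM with a median of 20.1 in CSS, and from 14.4 to 31.1 CPM with a median of 22.99 in CSS_control. CSS replicates 8 and 5 had less Npas4 than every control, and the other 6 stressed libraries lay within the controls. In T2D, Npas4 ran from 18.2 to 25.3 CPM with a median of 19.3, and in T2D_control from 15.5 to 31.4 CPM with a median of 23. The diabetic libraries lay within the range of their controls. In none of the 40 sets of 1 gene in 1 group was the highest or lowest library far enough from the rest to pass Dixon's test.

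Divided by the exon length of each gene, the levels of neighbours in the order were compared by the larger of their SDs. Egr1, Junb and Egr3 were the most abundant, with 15.1 to 21.9 CPM per kb in CSS and 14.6 to 15.7 CPM per kb in CSS_control. Fos and Jun followed with 9.74 and 7.00 CPM per kb in CSS and 8.05 and 7.08 CPM per kb in CSS_control. Npas4, Fosl2 and Egr4 came next with 4.92, 3.88 and 3.74 CPM per kb in CSS and 5.48, 3.31 and 2.996 CPM per kb in CSS_control. Egr2 and Fosb were the least abundant, with 2.41 and 1.56 CPM per kb in CSS and 1.82 and 1.44 CPM per kb in CSS_control. The 3 genes at the top did not differ from one another by more than 1 SD in any group, nor did Fos from Jun, nor Fosl2 from Egr4, nor Egr2 from Fosb. The third of the order lay above Fos, and Egr4 above both Egr2 and Fosb, by more than 1 SD in all 4 groups. Jun lay above Npas4 by more than 1 SD in 3 groups but not in T2D_control, where they had 6.71 and 5.56 CPM per kb, and Npas4 above Fosl2 in CSS_control alone. The order between Egr1 and Egr3 differed between groups: Egr3 came first in T2D, with 16.6 ± 4.71 CPM per kb beside 16.5 ± 6.71 CPM per kb for Egr1, and Egr1 came first in the other 3 groups.

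The comparison of CSS with CSS_control asked whether stressed mice carried more or less of these messages. By edgeR's quasi-likelihood test with adjustment over all 15097 genes, 0 of the 10 genes passed an adjusted p of 0.05, where 4.52% of all genes did, 2.11% higher and 2.42% lower in CSS. At an unadjusted p under 0.05 edgeR had 0 of them, beside 21.5% of all genes. DESeq2 also called 0 of the 10, where it called 1313 of all genes. It had 1 of the 10 at an unadjusted p under 0.05, beside 3373 of all genes. The log2 fold change was positive for 8 of the 10, beside 51.3% of all genes, and negative for 2, beside 48.7%. Its median was 0.18 over the 10 genes and 0.0054 over all genes. Most of the 10 genes varied together between mice, so this count does not stand for 10 separate observations. The libraries of both groups overlapped for all 10 genes, and failed to overlap for 0.609% of all genes.

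Egr1 had the largest difference in CSS, a log2 fold change of 0.49 ± 0.23 (SE, 95% interval -0.01 to 0.98, adjusted p = 0.244), with 6 of 8 stressed libraries above the mean of the controls. Egr2 followed with 0.41 ± 0.30 (95% interval -0.23 to 1.05) and Egr4 with 0.33 ± 0.20 (95% interval -0.10 to 0.75). The values of Fos, Fosl2, Fosb, Junb and Egr3 were 0.29, 0.24, 0.13, 0.10 and 0.05. Jun had -0.01 ± 0.06 with a 95% interval of -0.14 to 0.12, the narrowest of the 10. Npas4 had -0.14 ± 0.24, with a 95% interval of -0.65 to 0.36. Without CSS replicate 2 the value of Egr1 was 0.30, that of Egr2 0.23 and that of Egr3 -0.07. Without CSS replicate 1 that of Fos was 0.16, and without CSS replicate 6 that of Egr4 was 0.20 and that of Junb -0.05. Without CSS_control replicate 1 that of Fosb was 0.04, and without CSS replicate 8 that of Npas4 was -0.02. The title codes of the controls hold C1 in 4 libraries and C2 or C3 in the other 4, and what the codes stand for is not given. The stressed libraries carry C1, C2, C3 or C4, most of them C3 or C4, and no control carries C4. Whether a code number means the same in both groups is not given either. The codes are not balanced between the groups, and their part cannot be told apart from that of stress. Against the C1 controls alone Egr1 had a log2 fold change of 0.65 and Fos one of 0.55. Against the C2 and C3 controls alone Egr1 had 0.34, Fos 0.06, Fosb -0.10 and Junb -0.01.

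The comparison of T2D with T2D_control asked the same of the diabetic mice. Again 0 of the 10 genes passed an adjusted p of 0.05 in edgeR or in DESeq2. Among all 15054 genes edgeR called 0.0% and DESeq2 called 4 genes. At an unadjusted p under 0.05 there was 1 of the 10 genes, Jun, beside 5.84% of all genes. The log2 fold change was negative for 9 of the 10, beside 49.2% of all genes, and positive for 1, beside 50.8%. Its median was -0.27 over the 10 genes and 0.0021 over all genes. As in CSS, the signs of the 10 genes are not 10 separate observations. The libraries of both groups overlapped for all 10, and failed to overlap for 0.146% of all genes.

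Egr2 had a log2 fold change of -0.74 ± 0.59 in T2D, with a 95% interval of -2.02 to 0.54. Egr1 had -0.46 ± 0.28 (95% interval -1.06 to 0.14, adjusted p = 0.838), with 1 of 6 diabetic libraries above the mean of the controls. Egr3, Fos, Fosb, Junb, Fosl2, Egr4 and Npas4 had -0.36, -0.35, -0.33, -0.22, -0.19, -0.15 and -0.15. Jun went the other way with 0.36 ± 0.13 (95% interval 0.09 to 0.64, adjusted p = 0.825), and 5 of 6 diabetic libraries lay above the mean of the controls. Without T2D_control replicate 6, the highest library of its group in 9 of the genes, Egr2 had -0.32, Egr1 -0.26, Egr3 -0.21, Fos -0.11, Fosb -0.10, Junb -0.05 and Npas4 -0.04. Fosl2 then had 0.04 and Egr4 0.09. Without T2D replicate 3 Egr2 had -1.10, Fos and Fosb -0.58 each and Fosl2 -0.45, and without T2D replicate 6 Egr1 had -0.67. The mean RIN was lower in T2D than in T2D_control, with overlapping ranges of 8.7 to 9.4 in T2D and 8.5 to 9.8 in T2D_control. T2D_control replicates 1 to 6 had a RIN of 9.7, 9.2, 8.5, 9.2, 9.8 and 9.8. Their mean deviations from the group over the 10 genes were -0.04, -0.66, -0.30, -0.10, 0.30 and 0.80 log2 units. T2D replicates 1 to 6 had a RIN of 9.2, 9.0, 9.4, 9.0, 8.7 and 9.0, with mean deviations of -0.11, -0.37, 0.53, -0.26, -0.31 and 0.51. With RIN as a covariate the log2 fold change of Fos was -0.05, of Egr2 -0.0033, of Junb -0.02, of Egr3 -0.30 and of Egr1 -0.37. That of Fosl2 turned to 0.18, of Fosb and Egr4 to 0.06 and of Npas4 to 0.01, while that of Jun was 0.43. The part of RNA quality in the differences was not tested beyond this fit.

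**Figure D2:**
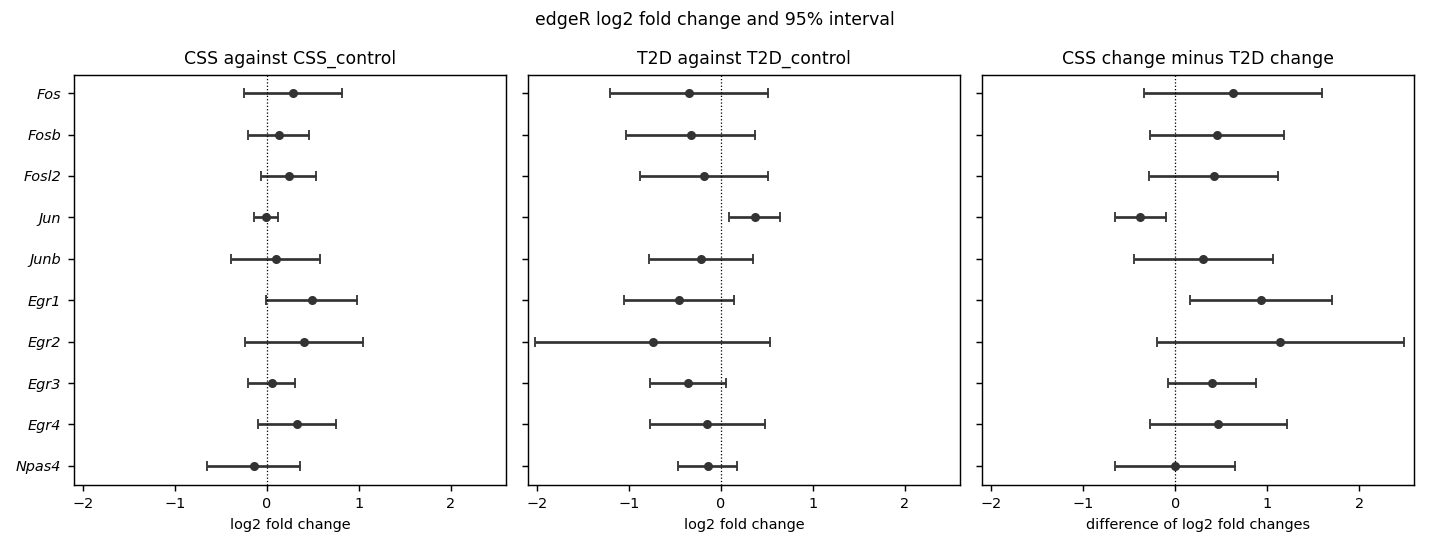
Log2 fold change of each gene (point) with its 95% interval (bar) for CSS against CSS_control, T2D against T2D_control and the difference between both changes. In the first panel 8 of 10 points lie right of 0 and every interval includes 0; in the second 9 lie left of 0 and the interval of Jun alone lies wholly on one side.

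The difference between both changes was tested in 1 fit of all 28 libraries, as the change in CSS minus the change in T2D. Of the 10 genes, 0 passed an adjusted p of 0.05, where 0.0806% of 14888 genes did, 0.047% with a positive and 0.0336% with a negative difference. At an unadjusted p under 0.05 there were 2, Egr1 and Jun, beside 12.4% of all genes. The difference was positive for 8 of 10, beside 48.9% of all genes, and negative for 2, beside 51.1%, with a median of 0.43. For Egr1 it was 0.93 ± 0.38 log2 units (95% interval 0.16 to 1.71, adjusted p = 0.309) and for Egr2 1.14 ± 0.65 (95% interval -0.20 to 2.49). For Jun it was -0.38 ± 0.14 (95% interval -0.66 to -0.10, adjusted p = 0.250), the opposite sign. For Npas4 it was -0.0029 ± 0.32, with a 95% interval of -0.65 to 0.64. Without T2D_control replicate 6 the difference was 0.74 for Egr1, 0.72 for Egr2, 0.39 for Fos, 0.22 for Fosb and 0.19 for Fosl2.

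The spread between mice of a group was larger for most of these genes than for most genes. The SD of log2 CPM within groups had a median over the 10 genes of 0.48 in the CSS cohort and 0.54 in the T2D cohort, beside medians over all genes of 0.18 and 0.21. Egr2 spread most, with an SD of 0.69 in the CSS cohort and 1.12 in the T2D cohort, wider than 98.0% and 99.1% of all genes. Fos had 0.56 and 0.79. Jun was the exception in the CSS cohort, with an SD of 0.11 that was wider than 15.0% of all genes. In the T2D cohort Jun had an SD of 0.24, wider than 58.5% of all genes. Npas4 spread widely in the CSS cohort, with 0.55, and less in the T2D cohort, with 0.29.

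**Figure D3:**
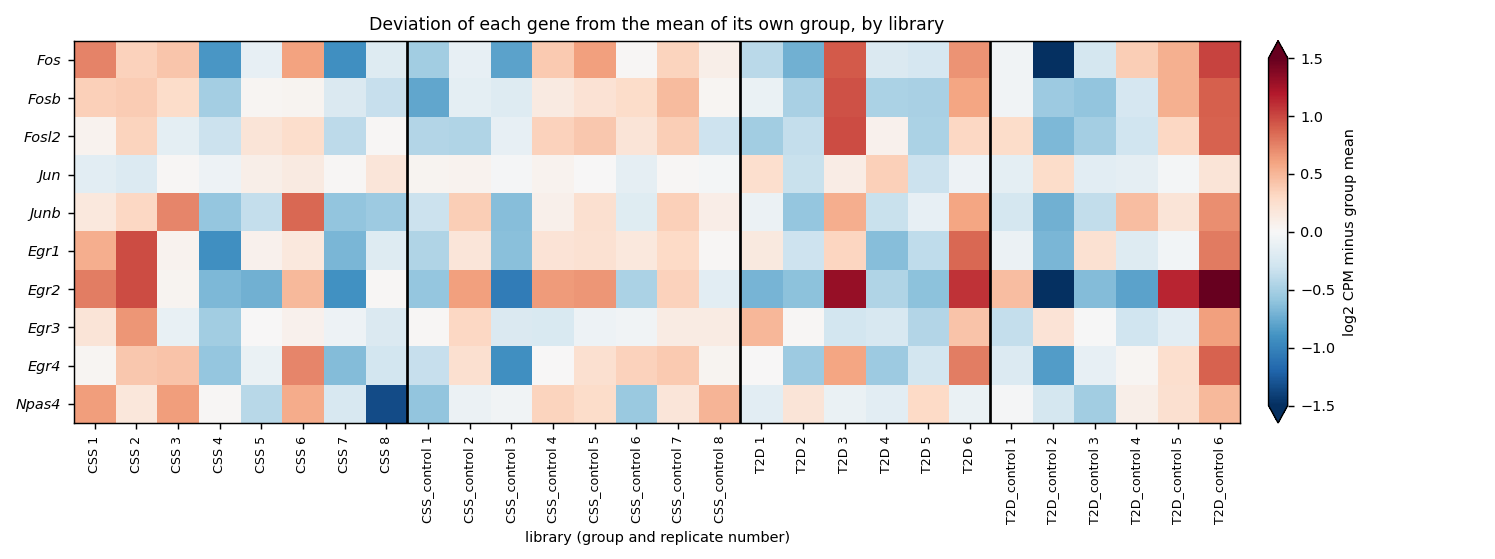
Log2 CPM of each gene in each library minus the mean of that gene in its own group, in red above and in blue below the mean. Whole columns share a colour, such as T2D_control replicate 6 (10 of 10 genes above the mean) and CSS_control replicate 3 (0 of 10), while the row of Jun stays pale in the CSS cohort.

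For most of the genes, high and low values tended to come from the same mice. Egr3, Jun and Npas4 departed from this in T2D, where they were highest in replicates 1, 4 and 5. Jun was highest among T2D_control in replicate 2. In CSS, replicates 2, 6 and 1 had mean deviations over the 10 genes of 0.43, 0.39 and 0.33 log2 units above their group, with 9, 10 and 9 genes above its mean. CSS replicates 4 and 7 had mean deviations of -0.50 and -0.46, each with 1 gene above the mean. Among CSS_control, replicate 3 had a mean deviation of -0.46 with 0 of 10 genes above the mean. In T2D, replicates 3 and 6 had 0.53 and 0.51, and the other 4 libraries lay between -0.37 and -0.11. T2D_control replicate 6 had 0.80 and was the highest of its group in 9 of 10 genes, and T2D_control replicate 2 had -0.66 and was the lowest in 6.

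Other features of these libraries were as follows. The summed level of excitatory neuron markers was highest within CSS in replicate 2, with 2233 CPM, and lowest in replicate 4, with 1385 CPM. CSS replicate 7, low in the 10 genes, had 1897 CPM, and CSS replicate 6, high in them, had 1649 CPM. In T2D it was lowest in replicate 3, with 1081 CPM, which was high in the 10 genes, and T2D replicate 6 had 1612 CPM. T2D_control replicate 6 had the highest excitatory sum of its group, 1998 CPM, and the lowest striatal sum, 228 CPM, while T2D replicate 6 had the highest striatal sum, 1422 CPM. The RIN was 9.5 in CSS replicate 2 and 10.0 in CSS replicate 4. In bulk tissue, fewer cells of a type and less RNA per cell cannot be told apart, and the part of cell makeup in these levels was not tested.

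The covariation was measured for the 45 pairs of genes in each cohort, from deviations from the group mean, with permutation tests within groups and adjustment over the 45 pairs. In the CSS cohort 20 pairs passed an adjusted p of 0.05 by Pearson's r and 22 by Spearman's rho, with a median r over all pairs of 0.54 (n = 16 libraries). In the T2D cohort 20 pairs passed by Pearson's r and 14 by Spearman's rho, with a median r of 0.44 (n = 12 libraries). By Pearson's r, 17 pairs passed in both cohorts, all of them among Fos, Fosb, Fosl2, Junb, Egr1, Egr2 and Egr4. Without the 2 libraries farthest from the median of the first gene, r of the pairs that passed lay between 0.47 and 0.87 in the CSS cohort and between 0.52 and 0.92 in the T2D cohort. These are pairs picked for their r. Leaving out 1 library gave 17 to 23 pairs in the CSS cohort and 13 to 20 in the T2D cohort. The count was 13 without T2D_control replicate 2 or without T2D_control replicate 6.

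Junb and Egr4 were the closest pair in both cohorts. Their r was 0.90 and rho 0.92 in the CSS cohort (n = 16, permutation p = 1e-05 for both, the smallest the permutations can give, adjusted p = 0.00045). In the T2D cohort r and rho were both 0.93 (n = 12, permutation p = 9e-05 for r and 0.0001 for rho, adjusted p = 0.00191 and 0.0018). Fosl2 and Egr2 had an r of 0.93 in the T2D cohort (permutation p = 6e-05, adjusted p = 0.00191) and one of 0.52 in the CSS cohort (permutation p = 0.0476, adjusted p = 0.0823). Fos followed the mean of the other 9 genes with an r of 0.93 in the CSS cohort and 0.89 in the T2D cohort, and Egr4 with 0.86 and 0.95. Egr3 had 0.56 and 0.25, and Npas4 0.51 and 0.38.

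Over all libraries of a cohort, Jun did not follow the other genes. Its 9 pairs had r between -0.38 and -0.01 in the CSS cohort and between -0.24 and 0.41 in the T2D cohort, and 0 of them passed in either. Its r with the mean of the other 9 was -0.23 and 0.09. The 36 pairs without Jun had r from 0.18 upwards in the CSS cohort, with a median of 0.63, and from 0.0077 upwards in the T2D cohort, with a median of 0.74. Without the 2 libraries farthest from the median of the first gene, these 36 pairs had a lowest r of 0.06 and a median of 0.61 in the CSS cohort. In the T2D cohort they had a lowest r of -0.40 and a median of 0.56. Libraries were thus dropped by Fos, Fosb or Fosl2 in their pairs with Jun, and by Jun in its other pairs. Trimmed in this way, the pairs with Jun had r from -0.62 to 0.35 in the CSS cohort. In the T2D cohort, with libraries dropped by Jun, its r was 0.68 with Egr4, 0.62 with Egr1, 0.59 with Egr3, 0.57 with Junb, 0.49 with Egr2 and -0.03 with Npas4. With libraries dropped by the other gene it was 0.20 with Fos, -0.0010 with Fosb and -0.04 with Fosl2. Because different libraries were dropped, these values cannot be compared between the Fos genes and the others. The low r of Jun with Junb, Egr1, Egr2 and Egr4 in the T2D cohort thus depended on the libraries kept.

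**Figure D4:**
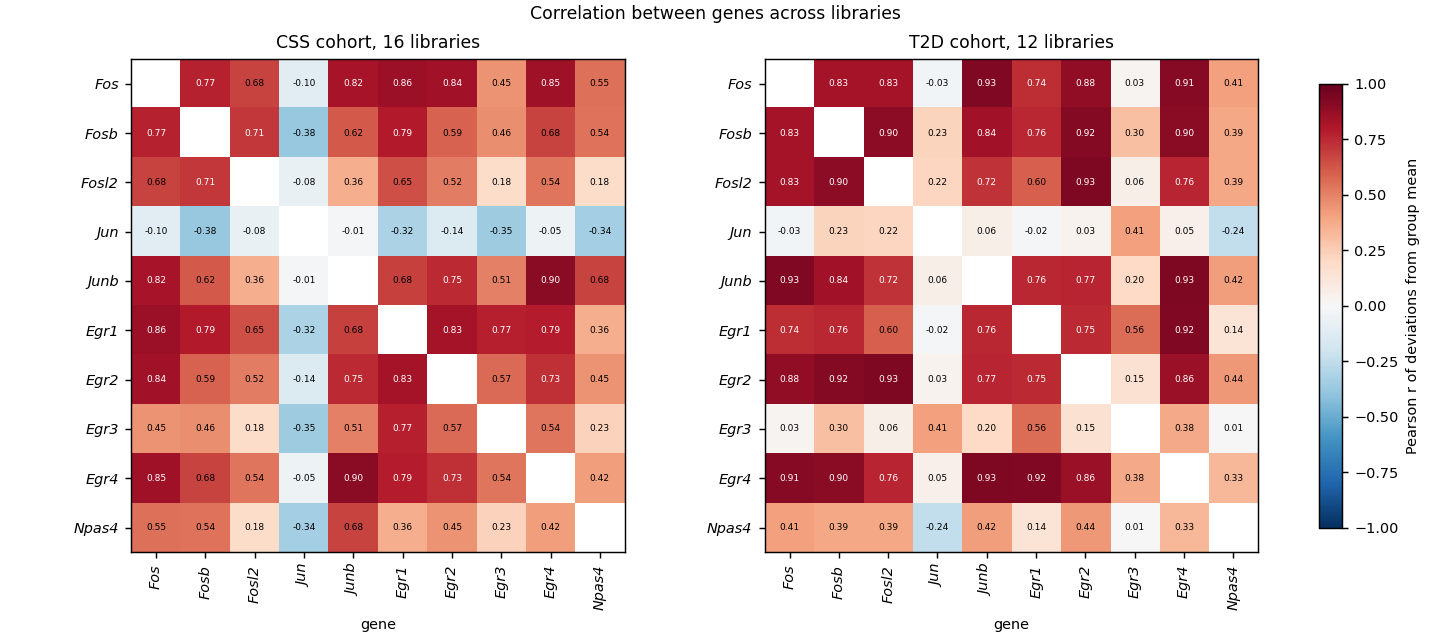
Pearson's r between each pair of genes over the 16 libraries of the CSS cohort (left) and the 12 of the T2D cohort (right), from deviations from the group mean. The row of Jun is pale or blue in the CSS cohort, whereas Fos, Fosb, Junb, Egr1, Egr2 and Egr4 form a block of high values, with r of 0.90 and 0.93 for Junb and Egr4.

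The genes outside the 10 that followed their mean deviation most closely were ranked over 13688 genes by the lower of the r in both cohorts, as a description. Arc, which acts at synapses and is itself an immediate early gene, came first with 0.94 in the CSS cohort and 0.92 in the T2D cohort. It averaged 183 ± 102.3 CPM in CSS and 119 ± 36.0 CPM in CSS_control, and 112 ± 40.6 CPM in T2D and 206 ± 143 CPM in T2D_control. Its log2 fold changes of 0.63 and -0.87 passed in neither cohort (edgeR adjusted p = 0.307 and 0.825). Dusp5, a phosphatase of ERK, and the orphan nuclear receptors Nr4a3 and Nr4a1 followed with a lower r of 0.87, 0.86 and 0.85. Then came Spry4, an inhibitor of receptor tyrosine kinase signalling, with 0.85, and Sertad1, Arl4d, Plk3, Pfkfb3 and Gpr3 with 0.82 to 0.84. The 95th percentile of r over all genes was 0.53 in the CSS cohort and 0.60 in the T2D cohort.

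Among these 10 most similar genes, Spry4 alone passed the test in CSS. It averaged 11.97 ± 2.79 CPM in CSS and 7.45 ± 1.002 CPM in CSS_control, a log2 fold change of 0.69 (edgeR adjusted p = 0.0109). It passed without any single library (adjusted p from 0.00651 to 0.0309) and did not pass against the C2 and C3 controls alone (0.57, adjusted p = 0.233). In that setting 0 of all genes passed, so the failure is not particular to Spry4. In T2D it had -0.28 (adjusted p = 0.825), with 10.7 ± 1.22 CPM in T2D and 13.1 ± 3.31 CPM in T2D_control.

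Of 44 other activity-induced genes, 43 were in both tables. In CSS 1 of them rose and 1 fell, a share near the 4.52% called among all genes, and 35 had a positive log2 fold change, beside 51.3% of all genes, with a median of 0.17 beside 0.0054 over all genes. Dusp4, a nuclear phosphatase of ERK, rose by 0.75 log2 units, with 8.94 ± 2.27 CPM in CSS and 5.34 ± 1.99 CPM in CSS_control (edgeR adjusted p = 0.0370). Gadd45g, a stress-induced regulator of growth and DNA demethylation, fell by 0.44 log2 units, with 5.19 ± 1.13 CPM in CSS and 7.07 ± 0.479 CPM in CSS_control (edgeR adjusted p = 0.05 after rounding). The call of Dusp4 held without CSS replicate 4 or 7 or CSS_control replicate 5, 6 or 7 and was lost without any of the other 11 libraries, with adjusted p from 0.0510 to 0.0786. That of Gadd45g held without CSS replicate 1 and was lost without any of the other 15, with adjusted p from 0.0542 to 0.0935. Nr4a3 had 0.68 (adjusted p = 0.0575).

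In T2D 0 of the 43 passed in edgeR, and 9 had an unadjusted p under 0.05, beside 5.84% of all genes. The log2 fold change was negative for 33, beside 49.2%, with a median of -0.20 beside 0.0021. As in CSS, these counts do not stand for 43 separate observations. Bdnf, the neurotrophin made on demand by active neurons, had -0.57, with 26.6 ± 5.83 CPM in T2D and 39.7 ± 15.5 CPM in T2D_control (adjusted p = 0.825). Klf10, a zinc finger repressor, had -0.53, with 31.8 ± 7.88 CPM in T2D and 46.1 ± 13.4 CPM in T2D_control (adjusted p = 0.825). Nr4a2, an orphan nuclear receptor, had 0.51, with 27.8 ± 9.04 CPM in T2D and 19.5 ± 5.39 CPM in T2D_control (adjusted p = 0.825). T2D_control replicate 6 had the highest sum of the 43 genes in its group, 3412 CPM. Without that library the log2 fold change was -0.36 for Bdnf and 0.61 for Nr4a2.

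Of 14 further genes of the AP-1 and ATF family, 8 were in both tables, among them Jund, and 0 passed in either cohort. The one of smallest p in CSS was Mafg, a small Maf partner, with 0.17 (adjusted p = 0.0834), and in T2D Jdp2, a repressor that binds AP-1 sites, with -0.39 (adjusted p = 0.825). Of 7 partners and repressors of the Egr proteins and Npas4, 2 rose in CSS, beside 2.11% of all genes, and 0 in T2D. Hdac4, a histone deacetylase that neurons move out of the nucleus when active, rose by 0.34 log2 units, with 93.7 ± 9.60 CPM in CSS and 74.7 ± 6.18 CPM in CSS_control (edgeR adjusted p = 0.0123, and from 0.00592 to 0.0330 without any single library). Arnt, a dimer partner of Npas4, rose by 0.30, with 40.6 ± 4.64 CPM in CSS and 33.2 ± 2.88 CPM in CSS_control (edgeR adjusted p = 0.0274). The call of Arnt was lost without CSS replicate 6 (0.0554) and without CSS_control replicate 1 (0.0568).

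Of 31 kinases, cofactors and transcription factors that act upstream of these genes, among them Creb1, Srf and the ERK kinases, 1 rose, 1 fell and 17 had a positive log2 fold change in CSS, shares near the 4.52% called and 51.3% positive among all genes. In T2D 0 passed. Ep300, a histone acetyltransferase recruited by CREB, rose by 0.41 log2 units, with 89.4 ± 14.6 CPM in CSS and 67.7 ± 8.93 CPM in CSS_control (edgeR adjusted p = 0.0252). That call was lost without CSS replicate 6, CSS_control replicate 1 or CSS_control replicate 2, with adjusted p from 0.0508 to 0.0586. Mef2c, a neuronal transcription factor that drives activity-dependent genes, fell by 0.31, with 595 ± 81.4 CPM in CSS and 742 ± 95.5 CPM in CSS_control (edgeR adjusted p = 0.0477). Its call held without CSS replicate 1 or 2 or CSS_control replicate 6 or 7 and was lost without any of the other 12, with adjusted p from 0.0523 to 0.0967. Against the C2 and C3 controls alone none of Dusp4, Gadd45g, Hdac4, Arnt, Ep300 and Mef2c passed, and 0 of all genes did.

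Markers of other cells moved in the same comparison of CSS with CSS_control. Of 10 microglia markers 5 fell, and their sum lay between 190 and 374 CPM in CSS and between 360 and 416 CPM in CSS_control. Of 8 astrocyte markers 2 rose, of 8 endothelial markers 1 rose, of 8 meningeal fibroblast markers Col1a1 rose, and of 8 inhibitory neuron markers Sst fell. None of the 8 excitatory, 8 oligodendrocyte and 8 striatal markers or of the 5 red blood cell genes passed. By sign alone, striatal markers were negative in 8 of 8 in CSS (median log2 fold change -0.25), excitatory markers in 4 of 8 and microglia markers in 9 of 10. Meningeal fibroblast markers were positive in 8 of 8 (median 0.63) and red blood cell genes in 5 of 5 (median 0.82). Of each of these lists 5 genes had an edgeR unadjusted p under 0.05, beside 21.5% of all genes. In T2D 0 genes of these lists passed. There the log2 fold change was positive for 8 of 8 striatal markers (median 0.56), and negative for 7 of 8 excitatory (median -0.17) and 10 of 10 microglia markers (median -0.41). For the change in CSS minus that in T2D, 8 of 8 striatal markers were negative (median -0.76) and 8 of 8 excitatory markers positive (median 0.17), while microglia markers were positive in 6 of 10. The part of these cells in the levels of the 10 transcription factor genes was not tested.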

How the data were processed

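The files held estimated counts per gene, which the authors deposited as 1 table per cohort, 15097 genes by 16 libraries and 15054 genes by 12. Per the submitters' processing notes, Salmon 1.1.0 and the build mm10 were used. Further settings, strand among them, are not stated in those notes. Per the labels' protocols, libraries were made with a stranded total RNA kit after ribosomal RNA removal.

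The estimated counts were rounded to whole numbers, scaled by TMM and tested with edgeR 4.0.16 (robust quasi-likelihood, R 4.3.3) within each cohort, and over all 28 libraries for the difference, with p-values adjusted by Benjamini-Hochberg across every gene tested and called under 0.05. Libraries are separate mice. The scripts were tested on simulated data. DESeq2 1.42.0 and other settings served as alternatives. Correlations used log2 CPM with a prior count of 2, as deviations from group means, with 100000 permutations within groups. Where 1 library was left out, 20000 permutations were used. Exon lengths came from GENCODE M21.

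The 10 genes and all lists were chosen with earlier results of these data known. Named outside the 10 were genes of the lists that passed the test, the listed genes of smallest p, and the 10 genes most like the mean of the members.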

Additional observations from a re-analysis of the deposited data

How the results depend on the processing

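None of the 10 genes passed an adjusted p of 0.05 under any setting run, with smallest adjusted p of 0.126 in CSS, 0.340 in T2D and 0.166 for the difference. The CSS comparison called 683 genes, 1313 with DESeq2, 1130 against the C1 controls alone and 0 against the C2 and C3 controls alone, where 1971 had an unadjusted p under 0.05. Without CSS replicate 5 and CSS_control replicate 5, a setting chosen after seeing the data, it called 232. Leaving out 1 library gave 222 (without CSS replicate 6) to 794 (without CSS_control replicate 6). The T2D comparison called 0 genes, 4 with DESeq2, and 0 to 0 leaving out 1 library. The difference called 12 genes, 130 with DESeq2, 24 with a minimum mean of 5 CPM, 0 without robust estimation, 0 with RIN as a covariate and 0 without CSS replicate 5 and CSS_control replicate 5; leaving out 1 library gave 0 to 32. In those 3 settings with 0 calls 1858, 1545 and 1982 genes had an unadjusted p under 0.05. The cause of these shifts was not tested.

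Signs of log2 fold changes turned for Fosb (-0.10), Junb (-0.0120) and Jun (0.0223) in CSS against the C2 and C3 controls alone. In T2D with RIN as a covariate they turned for Fosb (0.0561), Fosl2 (0.18), Egr4 (0.0587) and Npas4 (0.00945), and for the difference of Npas4 without CSS replicate 5 and CSS_control replicate 5 (0.10). Leaving out 1 library turned Egr3 (-0.0734 to 0.12), Jun (-0.0418 to 0.01495) and Junb (-0.0502 to 0.17) in CSS. It also turned Fosl2 (-0.45 to 0.0429) and Egr4 (-0.33 to 0.0855) in T2D and Npas4 (-0.11 to 0.12) for the difference. The pairs called numbered 17 to 23 in the CSS cohort and 13 to 20 in the T2D cohort when 1 library was left out.

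Same-numbered libraries of treated and control groups correlated at -0.16 to 0.33 in the CSS cohort and -0.01 to 0.13 in the T2D cohort. The best match among the controls had the same number for 2 of 8 CSS libraries and 0 of 6 T2D libraries. The labels do not say whether the numbers pair the mice, and these correlations cannot settle it. With the replicate number as a block the counts of calls were 478 in CSS, 0 in T2D and 32 for the difference. With that block, of the genes outside the 10 that passed in CSS, Arnt (adjusted p = 0.0528), Ep300 (0.0564), Dusp4 (0.0616) and Gadd45g (0.0815) did not pass, and Hdac4 (0.0279), Mef2c (0.0413) and Spry4 (0.0274) did. In 1 fit of all 28 libraries Dusp4 (0.135), Gadd45g (0.101) and Mef2c (0.129) did not pass, and without CSS replicate 5 and CSS_control replicate 5 Arnt (0.0598), Ep300 (0.0713), Mef2c (0.114) and Gadd45g (0.0971) did not. Gadd45g also did not pass with RIN as a covariate (0.0639), without robust estimation (0.0510) or against the C1 controls alone (0.148). The spread between 6 to 8 mice a group limits the precision, with a 95% interval of -0.24 to 0.82 for Fos in CSS and of -2.02 to 0.54 for Egr2 in T2D.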
